A study of Homo sapiens with 17 samples.

Results

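RNA pulled down with ORF2p, the second protein of the LINE-1 (L1) retrotransposon, was compared with total RNA in N2102Ep, an established human embryonal carcinoma cell line. The comparison set 4 ORF2p RIP libraries against 6 total RNA libraries, 10 of the 17 labelled libraries, which also hold 4 ORF1p RIP and 3 mock IP libraries. RIP-seq sequences the RNA that comes down with a protein on affinity media. The features compared were single annotated repeat loci and their subfamilies. A locus entered when its estimated counts summed to 100 or more over the 17 libraries, which held for 347397 of 3594049 loci (9.67%), and 1074 of 1080 subfamilies passed the filter on low counts. The ORF2p RIP, total RNA and mock IP libraries all carry the source "N2102Ep clone 2/A6", so that they stand for 1 clone of 1 line. No treatment other than the pull-down, no genotype and no time is given for any group. The 3 mock IP libraries, labelled mIgG, were set beside the comparison as the background of the pull-down, and they share the same fit. Nothing in the labels says that the libraries of a group came from separate cultures, so the p-values speak for the variation among these libraries alone, and that may be technical.

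L1 is the only retrotransposon that still moves on its own in the human genome. A full-length copy makes 1 RNA that encodes ORF1p, which coats the RNA, and ORF2p, an endonuclease and reverse transcriptase that copies RNA into a cut in the DNA. Both proteins tend to bind the RNA that encoded them, and Alu elements, which encode no protein, borrow ORF2p to move. L1HS is the human-specific subfamily, L1PA2, L1PA3 and so on are successively older primate subfamilies, and the L1M names are older still. Embryonal carcinoma cells are a pluripotent tumour type in which L1 and the endogenous retrovirus HERVH are transcribed.

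The total RNA libraries fell into 2 series by the letters in their descriptions: b with 2 libraries and bl with 4, and the labels do not say what the letters stand for. Across subfamilies, log2 levels correlated at 0.999 within b, 0.998 to 0.999 within bl and 0.968 to 0.976 between the series, against 0.993 to 0.997 among the ORF2p RIP libraries. With b and bl as separate groups, 160 of 1074 subfamilies (14.9%) and 79579 loci (22.9%) differed between them; 5.59% of subfamilies were higher in bl and 9.31% in b. The Alu share of repeat reads was 18.4% in b and 6.86% in bl, and the mammalian L1 (L1M) share was 18.2% in b and 30.1% in bl. A value with no series named is against all 6 libraries, and values against each series are given beside the main ones. Totals of reads in repeats ran from 9795032 to 17056092 in ORF2p RIP and from 8937441 to 19670774 in total RNA, and the loci tested held 85.2% to 85.9% and 73.7% to 84.8% of them.

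Young L1 subfamilies, some older L1 subfamilies and part of the AluY subfamilies were higher in ORF2p RIP. A feature was called when edgeR's quasi-likelihood test gave an adjusted p under 0.05 and the fitted change was at least 2-fold. By that rule 55 subfamilies (5.12% of those tested) were higher and 14 (1.3%) were lower, 6.42% in all, with a median log2 change of -0.05 over all 1074. Of the 55, 24 were L1, 9 were Alu and 9 were ERV1, families of unlike size. By list, 8 of 9 young L1, 6 of 17 older primate L1, 8 of 88 mammalian L1 and 8 of 25 AluY subfamilies were higher. The ERV1 subfamilies that were higher all belong to the subfamilies outside the named lists, where 16 of 549 (2.91%) were higher. Against b, 8.75% of all subfamilies were higher and 2.61% lower, and against bl 9.03% and 2.33%. Of the 55, 39 (70.9%) were called against both series, as were 6 of the 14, which is 3.63% and 0.559% of all subfamilies. Against the mock IP, 8.19% of subfamilies were called, 72 of them higher and 16 lower. When libraries were scaled to their totals in place of TMM factors, the median moved to -0.47, and the share of calls that were higher went from 79.7% to 28.0%.

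L1HS stood at 17898, 17154, 15957 and 15720 CPM (counts scaled to library size with TMM factors) in the 4 ORF2p RIP libraries. The b libraries gave 941 and 826 CPM and the bl libraries 2707, 1784, 1750 and 2255 CPM. The mock IP libraries, at 1864, 1829 and 1686 CPM, lay among the total RNA values, and no ORF2p RIP library came near either group. The fitted log2 change of L1HS was 3.29 ± 0.37 (SE; adjusted p = 4.6e-06), with 4.24 against b and 2.97 against bl. L1PA2 was higher by 2.95 ± 0.35, from 5742 ± 2458 to 44409 ± 3010 CPM (SD; n = 6 and 4), and L1PA3 by 2.46 ± 0.29. The change then declined with the age of the subfamily. It was 1.86 for L1PA4, 1.79 for L1PA5, 1.66 for L1PA6 and 1.47 for L1PA7, and 0.41 for L1PA8, which was not called (adjusted p = 0.072). L1PA8A left that order at 1.62, with 51.4% of its ORF2p RIP level in 1 locus, at chrX:98880536-98886909 (hg38), and without that locus its log2 difference was 0.68. Without their leading loci L1PA4, L1PA5, L1PA6 and L1PA7 gave 1.71, 1.43, 1.48 and 1.36, so that L1PA5 fell below L1PA6. In all, 8 of the 9 young L1 subfamilies were called higher against all 6 libraries, against b and against bl.

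**Figure D1:**
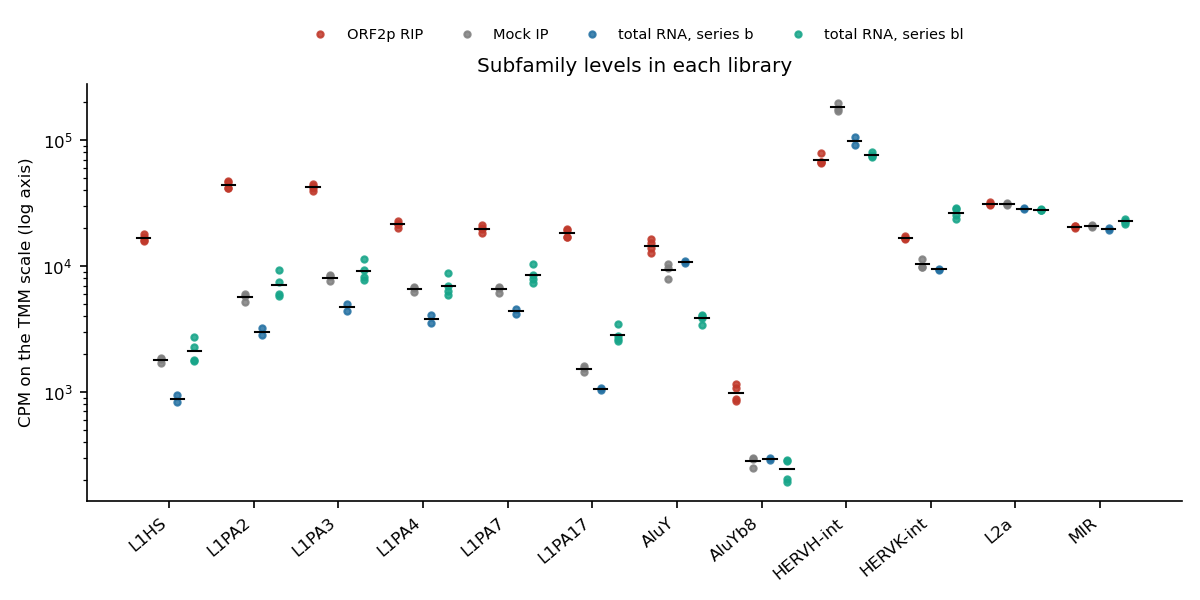
Level of 12 repeat subfamilies (CPM on the TMM scale, log axis) in the 4 ORF2p RIP, 3 mock IP, 2 series b and 4 series bl total RNA libraries. Each point is a library and each black line a group mean; the L1HS points of ORF2p RIP sit between 15720 and 17898 CPM and all others between 826 and 2707 CPM.

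Outside the young L1 list, the subfamilies with the largest changes depended on their leading locus to different degrees. L1PA17, an older primate L1, was higher by 3.02 ± 0.27, and 2.51 was left without the locus that held 49.4% of its ORF2p RIP level. That 2.51 still includes another abundant part of the same element, in ZNF208. The 5 leading L1PA17 loci together held 89.6%, and of 448 tested L1PA17 loci 69 were higher and 41 lower. LTR22A, the long terminal repeat of an endogenous retrovirus, was higher by 2.96 ± 0.16. LTR22A stood at 268, 231, 198 and 214 CPM in ORF2p RIP and between 21.2 and 36.1 CPM (median 29.1) in total RNA. A single LTR22A locus, at chr4:19063768-19064234, held 93.4% of that ORF2p RIP level, and the log2 difference of the other LTR22A loci together was -0.12. For L1M3de, at 2.46 ± 0.28, 88.4% came from 1 locus in JPX, a noncoding gene beside the X inactivation centre, and 0.57 was left without it. L1M6B (2.77 ± 0.16) and L1M2a1 (2.47 ± 0.13) kept 2.20 and 2.03 without their leading locus. The L1HS value moved to 3.24 when its leading locus was left out.

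Alu results turned on the series of total RNA. AluYb8 and AluYa5, young subfamilies with members that still move, were higher by 1.93 ± 0.17 and 1.55 ± 0.22, and both were called against b (1.75 and 1.33) and against bl (2.03 and 1.67). AluY measured 16309, 13880, 12802 and 15112 CPM in ORF2p RIP, 10978 and 10619 CPM in b, and 3877, 4089, 3982 and 3411 CPM in bl. AluY was called at 1.24 ± 0.30 over all 6 libraries, but the change was 0.43 against b and 1.92 against bl. Over the mock IP, at 10284, 7892 and 9668 CPM, AluY was not called (0.65, adjusted p = 0.19 by the same edgeR test). AluYb8 and AluYa5 were called over the mock IP, at 1.81 and 1.48. Of 25 AluY subfamilies, 8 were called higher over total RNA and 3 over the mock IP. AluSx, of the older AluS group, gave -0.03 against b and 1.30 against bl, and all 17 AluS subfamilies were called higher against bl and none against b.

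HERVH-int with its 5 LTR7 forms and HERVK-int with its 4 LTR5 forms were not called as subfamilies, though HERVH-int with LTR7 had a lower share of repeat reads, given below. HERVH-int, the internal part of the provirus whose RNA marks pluripotent cells, stood at 69937 ± 6046 CPM in ORF2p RIP and 83868 ± 12862 CPM in total RNA, a log2 change of -0.26 (adjusted p = 0.27). The mock IP held more of it than either, at 181990 CPM. HERVK-int, the youngest human provirus, changed sign with the series, at 0.84 against b and -0.66 against bl. Most subfamilies that were lower had small levels. An exception, named after its values were seen, was L1M2c, at 191 ± 20.6 CPM against 406 ± 210 CPM, with -1.48 against bl and 0.36 against b. MER133A, a short DNA repeat, was lower at 0.745, 1.11, 3.25 and 1.99 CPM against 5.28 to 9.02 CPM (median 5.93), a log2 change of -1.80 ± 0.36, and HERVK11D-int, of another HERVK group, was lower at -1.31 ± 0.18. HERVK9-int, also named after its values were seen, was higher by 1.32 ± 0.06, and it was called against both series. L2a and MIR, repeats that spread before the primates, gave 0.14 and -0.08 and were not called.

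**Figure D2:**
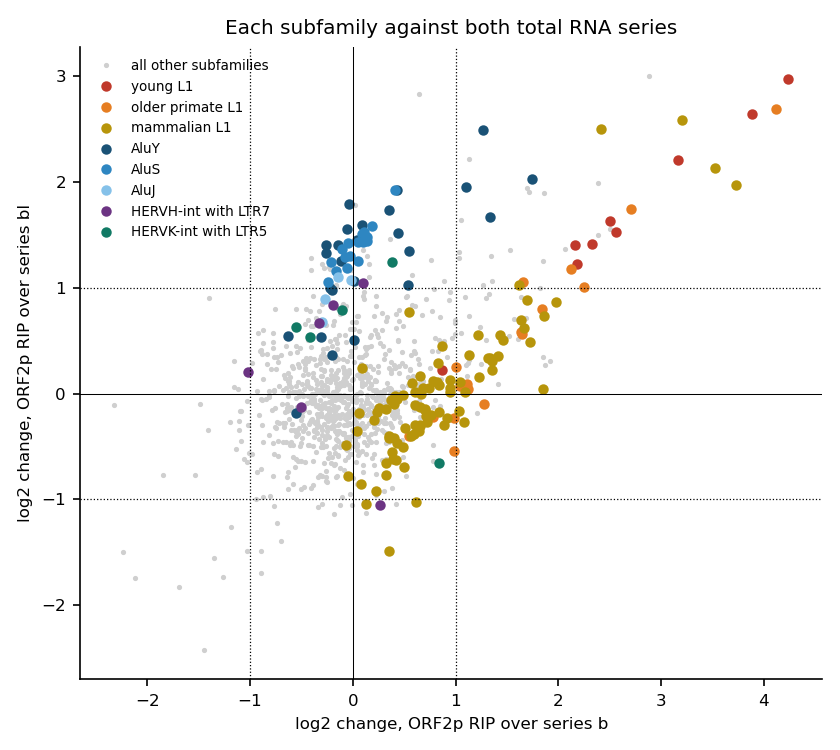
Fitted log2 change of each of 1074 subfamilies in ORF2p RIP against series b (x axis) and series bl (y axis) of total RNA, coloured by list; dotted lines mark a 2-fold change. Young L1 points lie to the upper right of both lines except L1PA8, AluS points lie near 0 on the x axis and above 1 on the y axis, and mammalian L1 points lean to the right of 0.

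As a share of all repeat reads, which does not depend on the scaling factors, young L1 took 15.6%, 16.2%, 15.3% and 14.8% in ORF2p RIP. It took 3.17% and 2.85% in b and 6.52%, 4.90%, 4.53% and 5.46% in bl, with no overlap. The difference was 10.9 points (exact two-sided permutation test, p = 0.0048, the smallest that 4 against 6 libraries can give, adjusted p = 0.014 over 12 lists). Older primate L1 had 6.85% against 3.604% by the same exact test (adjusted p = 0.014). A large part of that difference lay in few loci, L1PA17 in ZNF208 and L1PA13 in CCN2-AS1. They stood at 9038, 6928.5, 5331 and 2821 CPM in ORF2p RIP, against 626, 284, 298 and 83.7 CPM in total RNA. L2 with MIR had less, 11.2% ± 0.33 against 15.3% ± 0.71 (SD), and DNA transposons 7.49% against 9.70%, both with an adjusted exact permutation p of 0.014. Mammalian L1 lay between the series, at 24.1% in ORF2p RIP, 18.2% in b and 30.1% in bl, as did all Alu at 12.9%, 18.4% and 6.86%.

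At the level of single loci, 44653 (12.9%) were called higher and 50068 (14.4%) lower, and the median log2 change was -0.29. Both directions were called in every list, and young L1 had the highest share of higher calls. Of 16638 young L1 loci, 10040 (60.3%) were higher and 478 (2.87%) lower, with a median of 2.00. That share was 63.5% against b and 61.7% against bl, and 54.0% were called higher against both, where 8.44% of all loci were. Over all loci, 5.5% were called lower against both series and 0.537% in opposite directions, and in 10.4% all 4 ORF2p RIP libraries lay above all 6 total RNA libraries and in 9.92% below. AluY followed with 24.1% of 4693 loci higher and 3.49% lower, but only 14.9% against b and 44.4% against bl. Older primate L1 gave 14.9% higher and 12.2% lower, which is near the share of all loci. Against b it gave 22.3% and 6.12%, where all loci gave 12.4% and 11.8%. Against bl it gave 17.1% and 21.6%, where all loci gave 17.8% and 18.8%. Mammalian L1 (84729 loci), L2 with MIR (68176) and DNA transposons (40092) gave 9.56%, 7.59% and 8.70% higher and 17.9%, 17.2% and 16.3% lower. Mammalian L1 turned against b, with 13.3% higher and 7.80% lower. HERVH-int with LTR7 gave 6.13% higher and 16.7% lower over total RNA, while 47.8% of its loci were lower than in the mock IP. Over all loci, 8.35% were higher and 8.41% lower than in the mock IP, and 1.21% were higher in the mock IP than in total RNA.

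**Figure D3:**
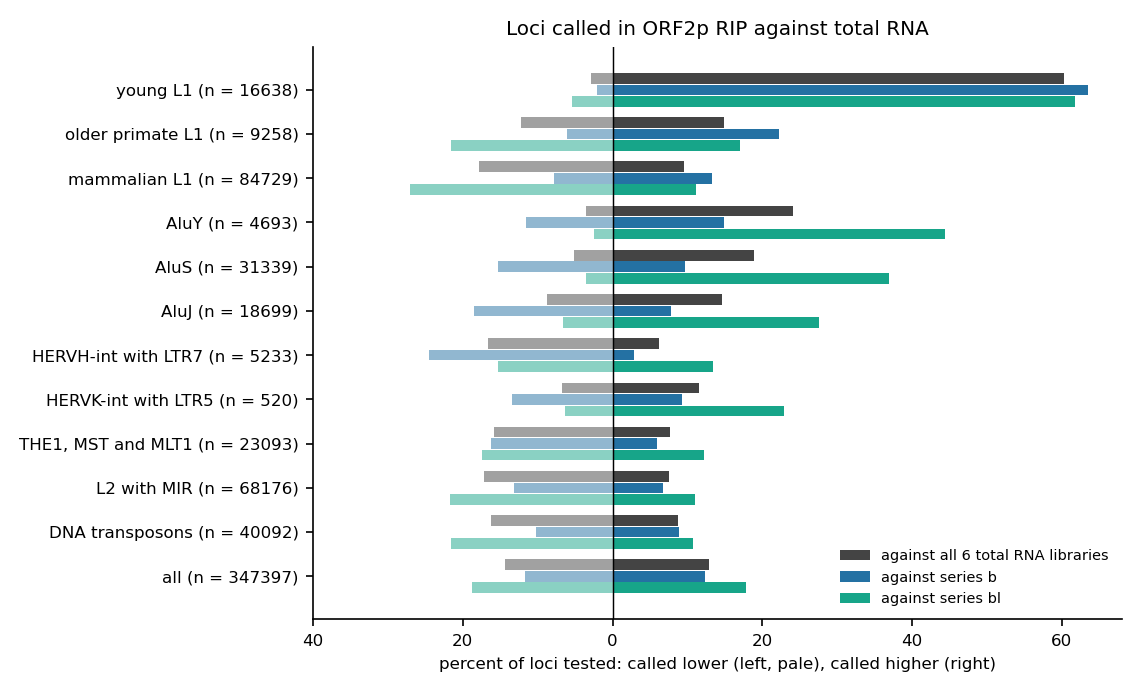
Percent of loci tested in each list that were called lower (left, pale) or higher (right) in ORF2p RIP, against all 6 total RNA libraries (dark) and against series b and series bl. Young L1 stays between 60.3% and 63.5% higher, AluS goes from 9.70% against b to 36.9% against bl, and mammalian L1 goes from 7.80% lower against b to 27.1% lower against bl.

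Within young L1, both the subfamily and the length of the copy went with the call. By subfamily, 92.7% of L1HS loci (814 of 878) were higher, 90.3% of L1PA2, 79.9% of L1PA3, 65.8% of L1PA4, 48.1% of L1PA5, 39.7% of L1PA6, 21.5% of L1PA7, 13.7% of L1PA8 and 16.4% of L1PA8A. L1PA8 and L1PA8A were thus near the 12.9% of all loci. Copies of at least 5900 bases, which is full length, were higher in 79.4% of 5534 cases, copies of 1000 to under 5900 bases in 59.2% of 8136, and shorter ones in 28.1% of 2968. Against b these shares were 82.8%, 63.6% and 27.3%, and against bl 80.5%, 60.3% and 30.5%. For L1HS these 3 length classes gave 99.0%, 92.7% and 80.3%, and for L1PA4 79.9%, 66.4% and 24.5%. Full-length L1PA8A copies, at 19.4%, were below the 20.7% of the middle class.

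**Figure D4:**
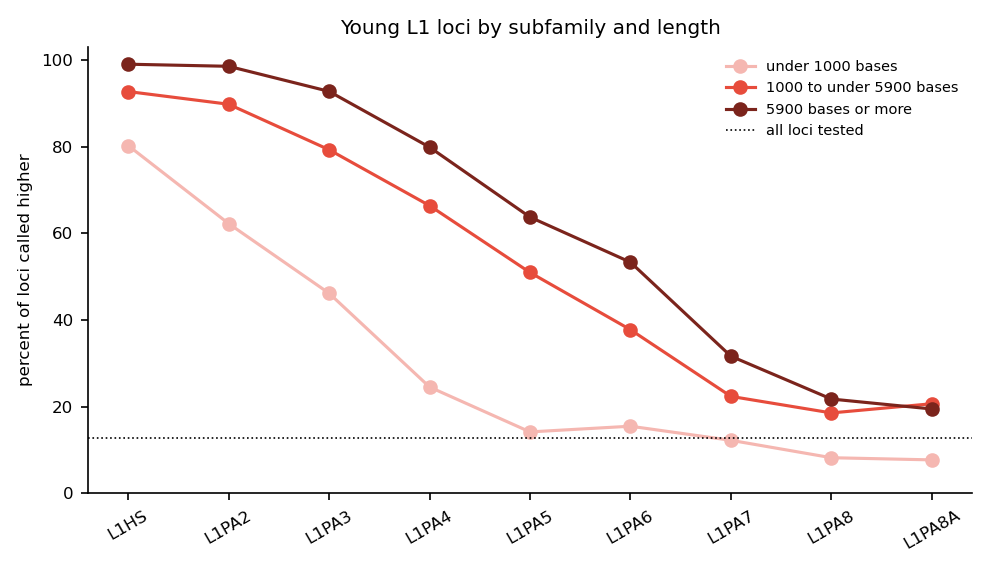
Percent of young L1 loci called higher in ORF2p RIP against all 6 total RNA libraries, by subfamily from L1HS to L1PA8A (x axis) and by length of the copy (3 lines); the dotted line is the 12.9% of all loci tested. Full-length copies fall from 99.0% in L1HS to 19.4% in L1PA8A, and copies under 1000 bases from 80.3% to 7.69%.

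Full-length L1HS copies moved as a group with little spread. Among the 305 off chromosome Y, the log2 change had quartiles of 3.05, 3.52 and 3.81, and ran from -1.47 to 5.58. Only 1 copy was lower, at chr9:2515634-2521964 (-1.47 against all 6 libraries, but 0.49 against b), and 2 were not called. These copies held 64.8% of the L1HS level in ORF2p RIP and 56.3% in total RNA, and the most abundant of them held 1.49%. Values of single young copies are uncertain, because near-identical copies share reads. None of the 5534 full-length young copies had whole-number counts in 15 or more of the 17 libraries, where 42.0% of all loci did. The few young loci that did were mostly old and short: 12 of 135 under 1000 bases (8.89%) and 1 of 17 of middle length (5.88%) were higher, and no L1HS locus was among them.

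Position relative to genes also went with the call. Positions come from RefSeq gene spans (GRCh38.p14), which carry no exons, so whether a locus is exonic, intronic or in a UTR is not given, and whether the counting used strand is not stated. Outside gene spans 88.2% of 2799 full-length young L1 copies were higher, and within the span of 1 gene 70.5% of 2530, with 90.5% and 74.3% against b and 87.2% and 73.9% against bl. Over all loci, 19.001% of those outside gene spans were higher and 10.8% lower, against 11.1% and 15.5% within 1 span. Young L1 loci annotated on the strand opposite to their gene were higher in 54.5% of 3715 cases and lower in 1.43%, and those on the same strand in 37.8% of 2738 and 8.66%. The order of the higher shares turned with the series: opposite and same strand gave 61.1% and 36.05% against bl, but 49.2% and 51.9% against b.

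For mammalian L1, annotated strand and total RNA series moved together. Loci on the same strand as their gene were lower in 28.6% of 20951 cases and loci on the opposite strand in 12.2% of 27897. Against bl these shares were 42.9% and 14.7%, and against b they were 7.05% and 11.9%, in the other order. AluS loci were higher in 24.1% of same-strand and 13.8% of opposite-strand cases, with 12.8% and 5.65% against b and 38.3% and 34.7% against bl. L2 with MIR were lower in 14.1% and 22.4%, with 11.7% and 17.9% against b and 17.1% and 26.4% against bl. RNA of intact introns and RNA of the repeat's own transcription cannot be told apart in these counts.

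Repeats just downstream of full-length young L1 copies were called higher more often than repeats upstream. Among loci outside the young L1 list within 5 kb of a full-length young copy, 705 of 3670 (19.2%) on the 3′ side were higher and 389 of 4296 (9.05%) on the 5′ side, against 10.5% of all 330759 loci outside that list. The 3′ side is the end at which L1 transcription stops. Beside L1HS copies the shares were 48.8% (100 of 205 loci) on the 3′ side and 13.1% (27 of 206) on the 5′ side, with median log2 changes of 1.38 and -0.09. Beside L1PA2 copies they were 25.5% and 6.07%, beside L1PA3 copies 17.3% and 8.84%, and beside L1PA4 to L1PA8A copies 14.4% and 10.03%. The 3′ share declined with distance, from 29.7% within 1 kb to 18.5% at 1 to 2 kb and 14.9% at 2 to 5 kb, whereas the 5′ share was 12.1%, 6.16% and 8.70%.

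The difference between the sides held in the subsets examined. With both series called, 41.5% of the loci 3′ of L1HS copies and 10.2% of those 5′ were higher, and over the mock IP 38.5% and 11.2%. Outside gene spans the L1HS shares were 59.1% and 10.7%. Among flanking loci with whole-number counts in 15 or more of the 17 libraries, 33 of 93 (35.5%) were higher on the 3′ side of L1HS and 14 of 93 (15.1%) on the 5′ side. In the same subset L1PA4 to L1PA8A copies gave 7.24% and 5.74%, which are close. Counted by copy, 50 of the 92 full-length L1HS copies with a tested 3′ neighbour (54.3%) had 1 or more that was higher, and 14 of 76 (18.4%) on the 5′ side. Neighbouring loci share transcripts and are not independent, and no test was made of this pattern, which was noticed in these data.

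**Figure D5:**
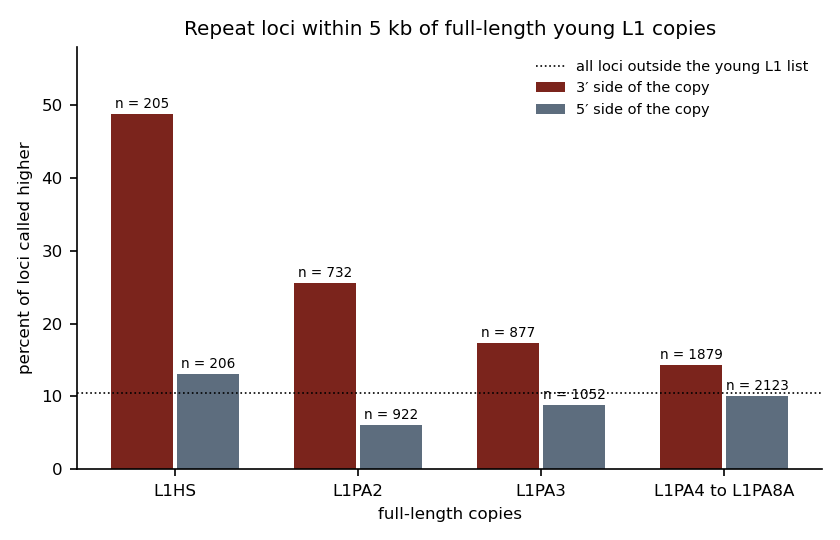
Percent of repeat loci outside the young L1 list that were called higher in ORF2p RIP, for loci within 5 kb on the 3′ side (dark red) or 5′ side (grey) of full-length young L1 copies, by subfamily of the copy (x axis); n is the number of loci and the dotted line is the 10.5% of all such loci. Beside L1HS copies the bars reach 48.8% and 13.1%, and beside L1PA4 to L1PA8A copies 14.4% and 10.03%.

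A pair of copies shows the pattern. A full-length L1HS copy within MALRD1 on chromosome 10 (19088602-19094618, minus strand) stood at 39.3 ± 3.43 CPM against 3.28 ± 1.89 CPM. At 1406 bases past its 3′ end, an LTR19B locus (19086666-19087196) measured 8.30, 4.67, 5.34 and 7.06 CPM in ORF2p RIP, 0.213 and 0.0973 CPM in b, and 0.346, 0.112, 0 and 0.615 CPM in bl. Its fitted change was 4.85 ± 0.51 (adjusted p = 5.1e-08) and no library overlapped. In SPOCK3, on chromosome 4, a full-length L1PA5 copy (166743490-166749649, plus strand) held 24.3% of the L1PA5 level, at 5705, 5590, 5243 and 4965 CPM against 41.8 and 51.1 CPM in b and 145 to 258 CPM in bl. The next 4 repeats on its 3′ side, MER91C, MIRb, AluJb and MER135, were all higher, by 3.53, 3.02, 4.01 and 2.35, and 0 of the 8 repeats on its 5′ side within 10 kb were called. Both examples were chosen after their values were seen.

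Loci called in the same direction lay together. Of the 44653 called higher, 29635 (66.4%) had another locus called higher within 5 kb, where 27.5% of all loci tested had one. Outside the young L1 list it was 77.5%, and for young L1 loci called higher 28.0%. Of the loci called lower, 73.4% had another locus called lower within 5 kb, where 42.8% of all loci tested had one. Reads were also concentrated: the 1000 most abundant loci of each library held 26.1% ± 0.32 (SD, n = 4) of repeat reads in ORF2p RIP, 15.8% ± 1.94 (n = 6) in total RNA and 19.8% ± 0.62 (n = 3) in mock IP.

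The most abundant locus in ORF2p RIP was an L1PA17 element within ZNF208, a zinc finger gene on chromosome 19 (21967686-21968855, minus strand, the gene's own). It measured 8440, 9716, 9681 and 8314 CPM in ORF2p RIP, 92.8 and 104 CPM in b and 1121, 734, 816 and 891 CPM in bl. Its fitted change was 3.85 ± 0.48, with 6.52 against b and 3.34 against bl. A second L1PA17 part of the same element (21966117-21967442) was higher by 4.61 ± 0.44, and the AluSx between them by 5.55 ± 0.45. Within 10 kb of the most abundant locus, itself included, 10 of 23 loci were higher and none lower, where 12.9% of all loci were higher. The summed level of the 23 was 17327 CPM against 1045 CPM. Repeats further out in ZNF208 did not share the change: over all 67 loci of that span the median was -0.13, with 14 higher and 8 lower.

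Other stretches, chosen like that of ZNF208 around an abundant locus that was higher, had the same form. The counts within 10 kb include that locus, so the choice favours higher calls. Over all loci 12.9% were higher. In LRRTM4, which encodes a synaptic adhesion protein, a HERVH provirus ends in an LTR7 (77093667-77094030 on chromosome 2) that was higher by 4.74 ± 0.29. It measured 979, 629, 571 and 762 CPM in ORF2p RIP against 19.6 to 36.6 CPM (median 26.4). The L1M2, L1MA7 and L1ME3C loci that follow it on the same strand were higher by 2.54 to 3.50, and 14 of 28 loci within 10 kb were higher and none lower. In AASS, a gene of lysine breakdown, 10 of 15 loci within 10 kb of the leading L1MB8 were higher, and in CCN2-AS1, an antisense noncoding gene, 31 of 39. In PRR11, a cell cycle gene, 15 of 16 were higher, with a median of 5.73, and 10 of the 11 loci above 20 CPM were Alu.

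L1TD1, a gene descended from the first L1 reading frame, is active in pluripotent cells. The 3 most abundant repeats in its span are old L1 parts annotated L1MEd and HAL1ME. They were higher by 2.19 ± 0.39, 2.34 ± 0.45 and 2.19 ± 0.42, and the first measured 1792, 1753, 1612 and 1662 CPM against 118 and 114 CPM in b and 608, 421, 467 and 511 CPM in bl. The mock IP libraries, at 118 to 137 CPM, lay near the b values and below the bl values. Of the 39 loci in the span, 6 were higher and 3 lower, and the median was -0.37.

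Pluripotency genes as a list, L1TD1 included, turned with the series. Of 25 such genes, 17 had tested loci, and 51 of those 405 loci (12.6%) were higher and 66 (16.3%) lower, where 11.1% and 15.5% of loci in any gene span were. Against b 9.14% were higher and 30.9% lower, beside 9.82% and 13.4% of all loci in genes, and against bl 26.4% and 12.6%, beside 16.5% and 19.2%. POU5F1 and NANOG, core pluripotency factors, had 0 of 7 and 0 of 12 loci called. In LIN28B, an RNA-binding protein that blocks let-7 maturation, 31 of 96 were lower and 1 higher. In LINC-ROR, a noncoding RNA of pluripotent cells, 11 of 18 were higher and 1 lower, and in TERF1, a telomere protein, 13 and 6 of 67. Genes that control repeat RNA, such as MOV10, TASOR and DICER1, had 30 higher and 30 lower of 265 loci, with 10.2% higher against b and 24.5% against bl. Markers of other cell types had few loci above the count minimum: 5 of 10 genes had 8 tested loci in all, 4 of them higher, 3 within PDGFRA, and COL1A1, COL3A1, PTPRC, ALB and AFP had none.

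Among the 7867 genes with 5 or more loci tested, 5427 had at least 1 higher, 5459 at least 1 lower and 3721 both. ACOXL had the most loci that were higher, 66 of 226, followed by HELLS (50 of 128), DOCK3 (43 of 347), MACF1 (41 of 363), RYR3 (41 of 173) and FAAH2 (41 of 196). The shares of DOCK3 and MACF1 were near the 11.1% of all loci in genes, so their rank follows from the number of loci tested. Lower loci numbered 6 in ACOXL and in HELLS, 41 in DOCK3, 31 in MACF1, 10 in RYR3 and 17 in FAAH2. MACF1 turned with the series, with 10 higher and 67 lower against b and 112 and 25 against bl, and RYR3 had 20 higher against b and 87 against bl. HELLS encodes a chromatin remodeller and DOCK3 a neuronal exchange factor. Genes with many loci that were lower included PLCB1 (96 of 435), MARCHF1 (94 of 350), AUTS2 (87 of 382), PTCHD1-AS (87 of 952) and RASAL2 (81 of 271). Such counts depend on how many loci were tested, and the PTCHD1-AS share was below the 15.5% of all loci in genes. The leading locus of a gene was the one with the highest ORF2p RIP level, a ranking that favours higher loci. By that ranking the leading locus was a full-length young L1 copy, called higher, within 4 of these 5 genes, all but PTCHD1-AS. In PLCB1 it was an L1PA2 copy at chr20:8595102-8601127 (4.03), and in AUTS2 an L1HS copy at chr7:70197329-70203357 (3.17). Zinc finger genes had 16.2% higher and 13.3% lower of 6257 loci, beside 11.1% and 15.5% of all loci in genes. Against b these were 14.3% and 15.6%, in the other order, and against bl 22.0% and 14.6%. Chosen after their values were seen, WBP2NL had 21 of 21 loci higher, DNAH11 27 of 29 and ERCC6 29 of 34.

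The loci with the largest changes were nearly empty in total RNA, and ranking by change favours such loci. The L1PA3 and MIR loci below reached the count minimum through ORF2p RIP, with 295 of 322 and 218 of 221 reads. Their low total RNA values thus follow in part from the choice. An L1PA3 fragment at chr12:60778308-60778993, outside gene spans, measured 10.001, 8.11, 6.70 and 4.87 CPM in ORF2p RIP, and all 6 total RNA libraries were at 0. Against a floor of 3 reads over the 6 libraries together, that is at least 254-fold higher. The mock IP libraries gave 0, 0.182 and 0.902 CPM, and the log2 change over them was 4.40. A MIR locus in LINC00504, at chr4:14471069-14471181, was at least 188-fold higher by the same floor. It lies 3′ of an L1PA4 copy (14471195-14474545, minus strand) with 442, 465, 424 and 367 CPM against 2.53 to 8.12 CPM (median 6.34), the young L1 locus with the smallest p (6.25 ± 0.37). In PRR11 an AluSq2 measured 27.5, 26.4, 16.4 and 26.1 CPM against 0 to 0.170 CPM (median 0.0999), a fitted change of 7.89 ± 0.53. The mock IP gave 0.366, 0.547 and 0.752 CPM, and the change of this AluSq2 over it was 5.43. Both the L1PA3 fragment and this AluSq2 were also called higher in the mock IP than in total RNA, by 5.24 and 2.46.

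The 10 loci with the largest changes in the other direction lay mostly in genes, 7 of them annotated on the gene's own strand, and 7 of them had L1 names. A HAL1M8 locus in XRN1, an exoribonuclease gene, measured 0, 0.123, 0 and 0.0686 CPM against 1.75 to 7.69 CPM (median 6.88), a ratio of 105 with a 95% counting interval of 28.8 to 865. An L1MDa locus in GLO1 gave -4.90 ± 0.80 and an L1M8 locus in SEC31A -4.75 ± 0.65. For these 2 the change was -2.15 and -2.45 against b and -5.38 and -5.26 against bl. The lower HERVK locus with the smallest p, an internal part at chr3:148563690-148567609, measured 64.0, 58.3, 44.0 and 61.6 CPM against 158 to 417 CPM (median 298), a log2 change of -2.31 ± 0.35, and its level in the mock IP was also below total RNA.

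Some tested repeats hold the start of a gene or a microRNA, and their sequences, from RefSeq on GRCh38.p14, show what these loci carry. Of 35116 promoter windows, 129 had at least 200 of their 250 bases upstream of the gene start inside a tested locus, and 14 of those loci were higher and 24 lower, where 12.9% and 14.4% of all loci were. The locus with the smallest p among the higher was an LTR104_Mam, chrX:120575158-120575784, that holds all 250 bases upstream of CUL4B, the scaffold of a ubiquitin ligase. It measured 20.6, 9.59, 12.04 and 18.9 CPM in ORF2p RIP against 0.837 to 3.45 CPM, with 2.99 ± 0.41 over all 6, 2.23 against b and 3.65 against bl. An MLT1F locus, chr4:129771158-129771679, holds the 250 bases upstream of LINC02465 and was higher by 1.77 ± 0.37. The windows follow, 5′ to 3′ on the strand of the gene, chrX:120575533-120575782 (minus) and chr4:129771369-129771618 (plus).
CUL4B: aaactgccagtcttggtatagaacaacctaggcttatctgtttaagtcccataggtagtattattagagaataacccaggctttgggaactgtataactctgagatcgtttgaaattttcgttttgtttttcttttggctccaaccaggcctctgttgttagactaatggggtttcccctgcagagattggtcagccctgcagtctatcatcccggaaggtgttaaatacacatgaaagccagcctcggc
LINC02465: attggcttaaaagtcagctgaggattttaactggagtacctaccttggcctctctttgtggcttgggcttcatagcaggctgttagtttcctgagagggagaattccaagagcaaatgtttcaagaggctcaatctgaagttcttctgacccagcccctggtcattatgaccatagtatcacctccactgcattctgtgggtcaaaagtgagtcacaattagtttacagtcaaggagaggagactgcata
Their GC content was 43.6% and 45.2%, where the median of all windows was 58%.

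Of 1562 microRNA hairpins, 19 lay wholly within 1 tested locus, and 0 of those loci were higher and 3 lower, a number too small to set against the 14.4% of all loci that were lower. MIR6507 lies in an L1M1 locus within HPSE2 with a change of -2.71 ± 0.59, at 0.0686 to 0.319 CPM in ORF2p RIP and 0.924 to 1.83 CPM in total RNA. MIR4771-2 lies in an L1MEg locus (-1.89 ± 0.51) and MIR3144 in an L1MA8 locus (-1.79 ± 0.51). Both of the latter rest on bl, with -0.46 and 0.29 against b. MADE1, a short transposon that folds into a hairpin, holds most of MIR570, and that locus was higher by 1.56 ± 0.55 (adjusted p = 0.035), at 0.851, 1.23, 2.93 and 0.96 CPM against 0.189 to 0.778 CPM, though its change was 0.93 against b. The counts are of reads in the whole repeat, not of the mature microRNA. The mature sequences are shown for the link from repeat to microRNA, with the seed (bases 2 to 8) in capitals, and no 2 of them share a seed.
hsa-miR-6507-5p: gAAGAAUAggagggacuuugu
hsa-miR-6507-3p: cAAAGUCCuuccuauuuuuccc
hsa-miR-4771: aGCAGACUugaccuacaauua
hsa-miR-3144-5p: aGGGGACCaaagagauauauag
hsa-miR-3144-3p: aUAUACCUguucggucucuuua
hsa-miR-570-5p: aAAGGUAAuugcaguuuuuccc
hsa-miR-570-3p: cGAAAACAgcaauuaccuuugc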

How the data were processed

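The authors deposited 1 table of repeat loci, and its values look like expected counts. The submitters' processing notes name STAR and hg38. The counting program, strand setting and versions are not given in the sources used here. Of 60 columns, 17 matched labelled samples and 43 entered no step. Rounded counts entered the quasi-likelihood test of edgeR 4.0.16 (R 4.3.3), with 1 term for group and all 17 libraries in the fit. Subfamily sums were filtered by filterByExpr (min.count 10) and scaled with TMM factors, which the loci also used. Adjustment for multiple tests (Benjamini-Hochberg) covered every feature tested. SE is the log2 change over the square root of F. Full length was 5900 bases or more. Named subfamilies were the 8 highest and up to 8 lowest called with at least 4 CPM and no overlap between the groups' libraries (5 lower ones met this), plus L1HS, L1PA2 to L1PA7, L1PA17, AluY, AluYa5, AluYb8, AluSx, HERVH-int, LTR7, HERVK-int, L2a and MIR. L1PA8 and L1PA8A complete the young L1 list. Named loci were the 10 highest and 10 lowest by the same conditions, 1 per gene or 100 kb, and the smallest p per list and direction, and named genes the 6 with the most calls each way, of which 1 is not reported here. Positions were matched to RefSeq gene spans (GRCh38.p14) and sequences to its promoter and microRNA tables. The test was checked on simulated counts with 1 fixed spread and no series within total RNA. That check therefore does not cover the difference between b and bl. The members and lists were chosen with earlier results of these data known.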

Additional observations from a re-analysis of the deposited data

Results flagged for a closer look

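Of 160 groups of values examined, 7 had a library far from the others, where chance gives about 1 in 20. HERVH-int was 78980 CPM in ORF2p RIP replicate 1 and 66470 to 67480 CPM in the other 3. The AluSq2 locus in PRR11 was 16.4 CPM in ORF2p RIP replicate 3 and 26.1 to 27.5 CPM in the rest. In ORF2p RIP, the lower MER20 locus on chromosome X was 0.213 CPM in replicate 1 and 0 elsewhere, and the L1PA5 locus in FANCI was 0.419 CPM in replicate 3 and 0 to 0.0686 CPM elsewhere. In total RNA, MER133A was 9.02 CPM in replicate 6 and 5.28 to 6.52 CPM in the other 5. The higher AluY locus on chromosome 5 was 0.0495 CPM in replicate 3 and 0 elsewhere, and the higher L1PA3 locus on chromosome 8 was 0.167 CPM in replicate 4 and 0 elsewhere. The 4 loci at or near 0 rest on few reads.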

How the results depend on the processing

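The cause was not tested for any change below. Scaling by library totals gave 30 subfamilies higher and 77 lower, 89976 loci lower (calls higher 26.5%, against 47.1%) and -0.28 for L2a. Subfamilies higher and lower were 94 and 28 against b and 97 and 25 against bl. AluSx (-0.031), HERVK-int (0.84) and MIR (0.060) changed sign against b, and HERVK-int was 0.090 with both series weighted equally. With a replicate block loci lower were 29191 and HERVK-int 0.022; replicate numbers did not pair the libraries, with correlations of 0.52, -0.33, 0.23 and -0.20 for the 4 shared numbers. Fewer loci pass stricter filters: 9535 higher and 6349 lower at a min.count of 100, and 7356 and 5375 at a sum of 1000. Share differences against b, which 4 against 2 libraries cannot call, were 12.5 points for young L1, 4.56 for older primate L1, 5.86 (turned) for mammalian L1, -0.10, -3.03, -2.09 and -5.50 (all turned) for AluY, AluS, AluJ and all Alu, -6.30 for HERVH-int with LTR7, 0.23 (turned) for HERVK-int with LTR5, -2.16 for THE1, MST and MLT1, -4.79 for L2 with MIR and -1.61 for DNA transposons. Against bl, past the threshold there but not against all 6 libraries, they were -5.96 for mammalian L1, 0.99 for AluY, 3.75 for AluS, 1.26 for AluJ, -1.43 for HERVK-int with LTR5 and 6.09 for all Alu. Over reads of the tested loci alone AluY was 0.64 and passed the threshold (adjusted exact permutation p = 0.023). HERVH-int with LTR7, at -5.04, and THE1, MST and MLT1, at -1.22, missed it there (adjusted exact permutation p = 0.057 for each). Leaving out 1 library at a time, subfamilies lower ranged from 9 (without ORF2p RIP replicate 4) to 15 and higher from 52 to 67, and loci higher from 39681 to 46902 and lower from 41292 to 52951. Share differences ranged from -0.10 to 0.60 for AluJ, below 0 without ORF2p RIP replicate 1 or any single bl library, from -3.88 to -2.84 for HERVH-int with LTR7 and from -1.30 to -0.98 for THE1, MST and MLT1. The last pair missed the threshold without any single ORF2p RIP library, where 3 remain. MER83C ranged from -1.17 to -0.96 and UCON69 from -1.15 to -0.96. DESeq2 gave 56 and 14 subfamilies. Young loci with whole counts, chosen after the data were seen, are too few to speak for full-length copies.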
